A study of Caenorhabditis elegans with 10 samples.

Results

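Young adult *C. elegans* that are cooled stepwise to 4°C enter a dormant state, and the step from 10°C to the first day at 4°C is the entry into that state. Here the RNA of animals at 4°C day 1 was set against the RNA of animals at 10°C, gene by gene and then by gene family, pathway and tissue list. The 2 samples of each condition make 4 of the 10 samples of the series. Of 19985 protein-coding genes, 10509 reached an FPKM of at least 1 (fragments per kilobase of transcript and per fixed number of mapped reads) in 1 or more of the 5 conditions of the series, and these were compared. The nearest genes inside and outside that filter were D2096.13, with a highest FPKM of 1.00003, and *col-149*, with 0.999972.

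All animals were wild type (N2), grown at 20°C on bacteria to the first day of adulthood and taken whole. The 4°C day 1 animals were held at 10°C first and then for 1 day at 4°C. The 10°C animals were collected after the 10°C step, which the protocol gives as 2 h and the sample labels as 3 h. The other conditions, used here for context, are 20°C and days 3 and 5 at 4°C. The day 1 animals were also a day older than the 10°C animals, so time and temperature cannot be told apart.

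The deposited values hold 1 column per condition. The spread between the 2 samples of a condition is therefore not known, and no difference below was tested against it. A gene is called here when log2 of (FPKM + 0.1) at 4°C day 1 over that at 10°C reaches 1 in size, that is 2-fold, and "rose" and "fell" are used of called genes. Folds are on the same scale, FPKM + 0.1, which understates the change of low genes. FPKM values multiplied by transcript length, and scaled by the value of 1 read, were whole numbers of reads. Summed over all transcripts they came to 85103831 at 4°C day 1 and 83707785 at 10°C. A read counts for each transcript it overlaps, so these sums are not numbers of sequenced reads. Where limits are given, they are exact 95% limits of the ratio of reads and cover counting error only.

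Cold acts on an animal without its own heat by slowing enzymes and stiffening membranes. Cells of *C. elegans* adjust membrane lipids through fatty acid elongases and desaturases, most of them active in the intestine, which is also the organ of yolk synthesis, fat storage and detoxification. A young adult hermaphrodite carries a large germ line and developing embryos, so whole-animal RNA mixes maternal, embryonic and somatic transcripts. In whole animals fewer cells of a type and less RNA per cell cannot be told apart.

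Of the 10509 genes, 577 (5.49%) were at least 2-fold higher and 570 (5.42%) at least 2-fold lower at 4°C day 1, 10.9% in either direction. Most genes moved little, and 78.6% stayed within 1.5-fold. The median log2 ratio of all genes was -0.09. The genes that rose had a median FPKM of 5.32 at 4°C day 1 and 1.41 at 10°C. The genes that fell had a median FPKM of 0.776 at 4°C day 1 and 2.45 at 10°C. Together the genes that rose took 2.05% of the reads of the compared genes at 4°C day 1 and 0.557% at 10°C, and the genes that fell took 0.418% and 1.19%. Genes known only by a sequence name made up 58.2% of the rises and 46.3% of the falls, against 39.9% of all genes compared.

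**Figure D1:**
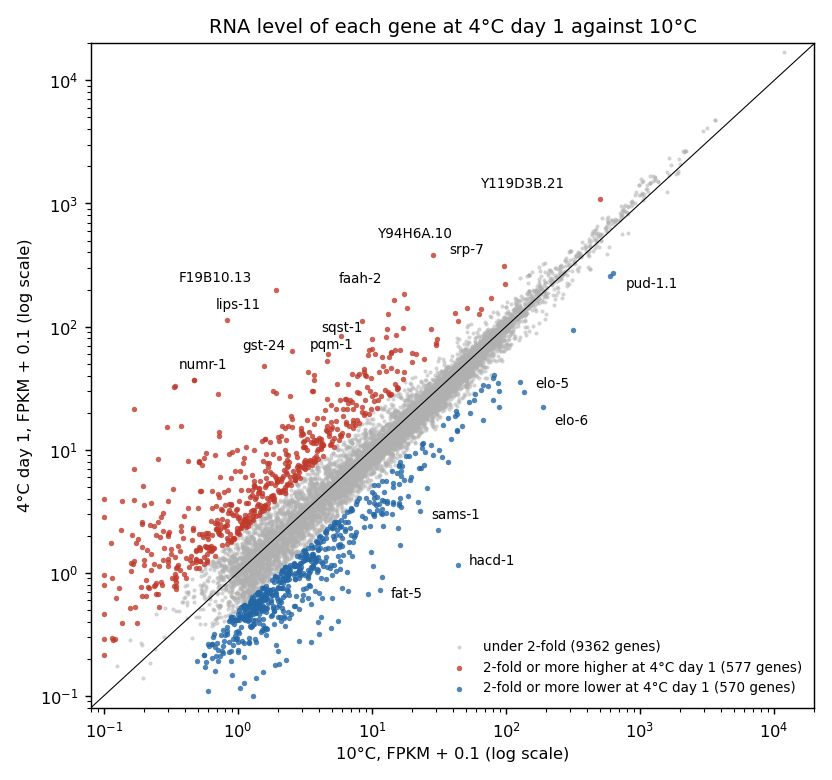
FPKM + 0.1 of each of the 10509 genes at 4°C day 1 (vertical, log scale) against 10°C (horizontal, log scale), 1 point per gene, with the line of equal values. The 577 red points are at least 2-fold higher and the 570 blue points at least 2-fold lower at 4°C day 1, and few of either lie among the most abundant transcripts.

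The share of called genes followed the RNA level. When genes were cut into 10 bins of equal size by their mean FPKM in the 2 conditions, in the lowest bin 10.7% rose and 20.8% fell. In the highest bin, 1.43% rose and 0.571% fell. The median FPKM of the lowest bin was 0.852, under the filter of 1. Genes with a mean under 1 were kept only if some condition reached 1, so the filter favours changed genes in that bin. Falls outnumbered rises in the lowest 3 bins, and rises outnumbered falls in the other 7. The median number of reads in the higher column was 435 for genes that rose and 208.5 for genes that fell, so counting error was small for most. The 95% counting limits of the ratio excluded equality for 571 of the 577 rises and 565 of the 570 falls. That was nearly assured, since the genes were called by a 2-fold ratio of the same reads. The limits lay wholly past 2-fold for 442 of the rises and 375 of the falls.

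**Figure D2:**
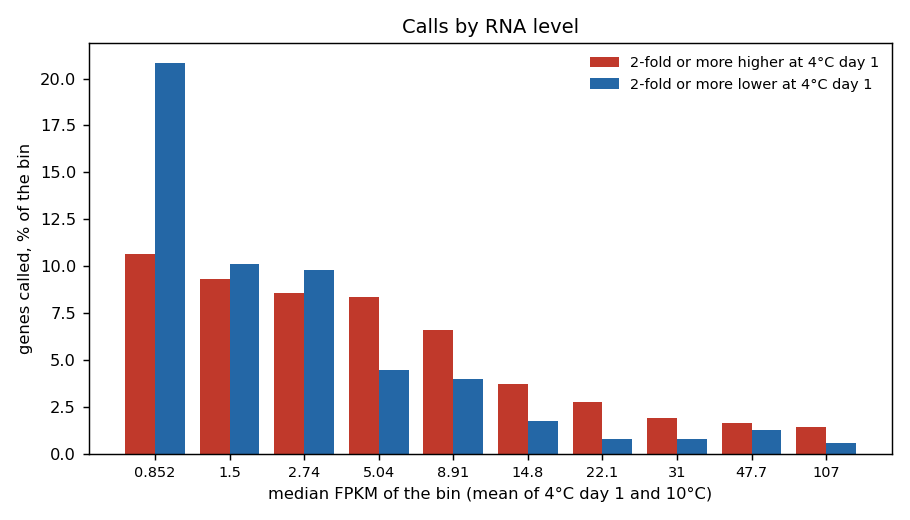
Share of genes called at 4°C day 1 against 10°C in each of 10 equal bins of genes by RNA level (horizontal axis, median FPKM of the bin over both conditions), with red bars for genes at least 2-fold higher and blue bars for genes at least 2-fold lower. The lowest bin holds 10.7% rises and 20.8% falls, the highest 1.43% and 0.571%. In the lowest bin the filter favours changed genes.

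Among the most abundant transcripts that fell were enzymes that lengthen fatty acids. The elongase gene *elo-6* (WBGene00001244, chromosome IV, 5386629 to 5388559, reverse strand, 3 exons) had the largest fall of this family. Its FPKM was 204 (20°C), 188 (10°C), 22.1 (day 1), 4.83 (day 3) and 4.27 (day 5). The level was held at 10°C and dropped 8.49-fold over the first day at 4°C, a log2 ratio of -3.09 (limits -3.16 to -3.02). The FPKM of its neighbour *elo-5* was 137 (20°C), 136 (10°C), 29.4 (day 1), 9.71 (day 3) and 9.97 (day 5), with a log2 ratio of -2.21 at day 1. ELO-5 and ELO-6 make the monomethyl branched-chain fatty acids of the worm, and 17.6% of the bases in *elo-5* exons also lie in exons of a second gene. For *elo-2*, whose product lengthens palmitic acid, the FPKM was 30.1 at 4°C day 1 and 88.6 at 10°C (log2 ratio -1.55), and *elo-9* had 1.18 and 3.29 (log2 ratio -1.40). The other elongase genes past the filter, *elo-1*, *elo-3* and *elo-4*, had log2 ratios of -0.23, -0.41 and -0.34, so that 4 of 7 fell and none was above 0.

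The desaturases, which place double bonds in these chains, split instead. The genes *fat-5* (15.9-fold) and *fat-6* (2.16-fold), which encode enzymes that place the first double bond in saturated chains, fell. The FPKM of *fat-6* was 30.2 at 4°C day 1 and 65.5 at 10°C, and it stayed between 22.2 and 25.1 at days 3 and 5. Their paralog *fat-7*, of the same activity, had an FPKM of 18.3 at 4°C day 1 and 18.2 at 10°C. The 4 genes for the later steps to polyunsaturated fatty acids, *fat-1* to *fat-4*, had log2 ratios between 0.02 and 0.22. For *fat-3* and *fat-4* the transcript used was short. At 4°C day 1, 812 reads gave *fat-3* an FPKM of 40.8 and 1560 reads gave *fat-4* one of 109, while *fat-1* had 10401 reads and 86.3. The values of *fat-3* and *fat-4* may not stand for the whole gene. In the wider list of fatty acid synthesis and desaturation, 7 of 32 genes fell and 0 rose, with a median log2 ratio of -0.22.

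Fatty acid breakdown fell in part as well. Of 38 genes for beta-oxidation in mitochondria and peroxisomes, 10 fell and 1 rose, with a median of -0.29. The steepest were *hacd-1*, a 3-hydroxyacyl-CoA dehydrogenase gene (-5.23), *cpt-5*, of the carnitine palmitoyltransferase family (-3.33), and *acdh-2*, an acyl-CoA dehydrogenase gene (-2.26). The FPKM of *cpt-5* was 0.294 at 4°C day 1 and 3.86 at 10°C, from 57 and 735 reads. Acyl-CoA oxidases carry out the first step of peroxisomal breakdown and shorten the side chains of pheromones, and 4 of 7 fell. Of these, *acox-1.2*, *acox-1.3* and *acox-1.4*, are neighbours on chromosome I with log2 ratios of -1.74, -1.93 and -1.82, while *acox-1.5* (0.06) and *acox-1.6* (-0.11) stayed near their 10°C level. The abundant enoyl-CoA hydratase gene *ech-7* had an FPKM of 34.8 at 4°C day 1 and 87.6 at 10°C. The acyl-CoA synthetase genes *acs-5* (-2.56), *acs-14* (-1.40) and *acs-1* (-1.14) fell and *acs-17* (1.14) and *acs-16* (1.13) rose. The 1 rise in the beta-oxidation list was *pmp-4*, a transporter of the peroxisomal type, with 12.2 at 4°C day 1 and 3.93 at 10°C.

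One-carbon metabolism supplies methyl groups for phosphatidylcholine, the main membrane phospholipid. In the list of phosphatidylcholine and methionine cycle genes, 4 of 22 fell and 0 rose, with a median of -0.26. The FPKM of *sams-1*, the S-adenosylmethionine synthetase gene on chromosome X (11965962 to 11968124), was 31.5 (20°C), 22.8 (10°C), 3.05 (day 1), 6.69 (day 3) and 1.70 (day 5). The drop from the 10°C level was 7.29-fold (log2 ratio -2.87, limits -3.04 to -2.77). The others were *cept-1*, for the last step of the choline branch (-1.68), *metr-1*, methionine synthase (-1.07), and *ckb-1*, a choline kinase gene (-1.01). The last 2 lie close to the threshold, and *ckb-1* passed the filter only through 20°C. With all ratios centred on their median, 2 of this list were called.

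Amino acid breakdown leaned down too. Of 34 genes, 6 fell (17.6%) and 1 rose, 6 were above 0 and the median was -0.25. The gene *gcsh-1*, for the H protein of the glycine cleavage system, had an FPKM of 27.99 (20°C), 16.1 (10°C), 1.56 (day 1), 0.583 (day 3) and 0.387 (day 5). Falls were also seen for *haao-1* of the kynurenine pathway (-1.76), the tyrosine aminotransferase gene *tatn-1* (-1.66) and the glutaminase gene *glna-2* (-1.54). The rise was *cdo-1*, cysteine dioxygenase, with an FPKM of 25.5 at 4°C day 1 and 6.33 at 10°C. In propionate breakdown, *nhr-68*, a nuclear receptor that activates the propionate shunt, had an FPKM of 2.31 at 4°C day 1 and 9.51 at 10°C. Its downstream enzyme gene *hphd-1* had an FPKM of 40.4 at 4°C day 1 and 81.2 at 10°C, just past the threshold, and 18 of the 20 genes of that list were not called. The gene *acdh-1*, of the same pathway, had 394 at 4°C day 1 and 410 at 10°C.

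By contrast, the lists of central energy metabolism and gene expression machinery held no called gene. None of 24 genes of glycolysis, gluconeogenesis and the glyoxylate cycle, 25 of the tricarboxylic acid cycle, 18 of NADH dehydrogenase and 10 of ATP synthase was called. All 77 of these genes stayed within 1.5-fold. Across 13 lists of transcription, splicing, translation, RNA turnover and proteasome genes, 0 of 395 rose or fell, and 98.5% stayed within 1.5-fold with a median of 0.03. Over all genes 10.9% were called, but calls were rarest among the most abundant genes, and these lists were not matched for RNA level. Neither were the families and lists with more calls. Small shifts were shared: 74 of 77 cytosolic ribosomal protein genes were above 0 (median 0.18), and 13 of 71 mitochondrial ones (median -0.08). Of the 69 families and lists with at least 10 genes past the filter, 24 held no called gene. These 24 were picked out by their lack of calls, and they cover 667 genes with log2 ratios from -0.87 to 0.97.

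**Figure D3:**
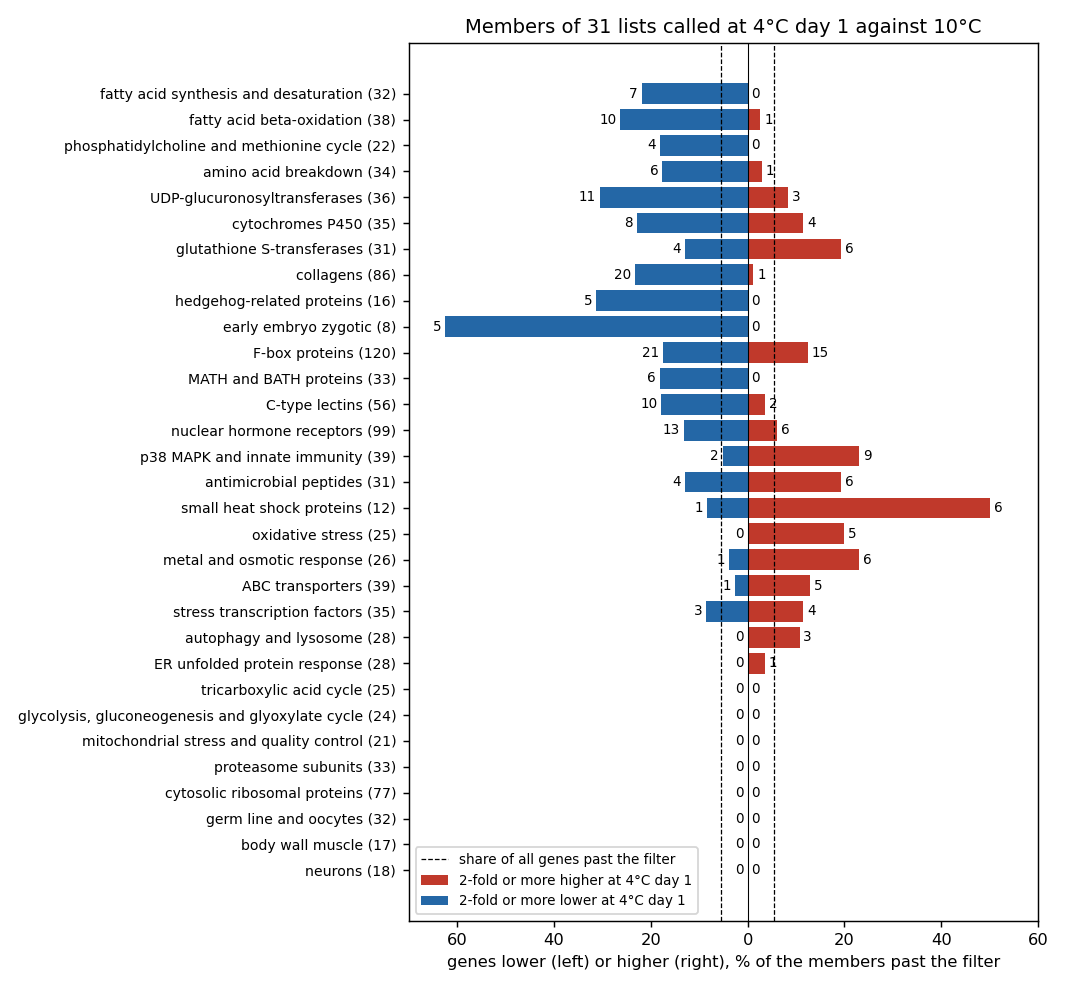
Members at least 2-fold lower (blue, left) or higher (red, right) at 4°C day 1 against 10°C in 31 families and lists, as a percentage of the members past the filter, whose number is in parentheses; digits at the bars are gene counts and dashed lines mark 5.42% (left) and 5.49% (right), the shares over all genes. Lipid, cuticle and early embryo lists extend to the left. The small heat shock, oxidative, metal and autophagy lists extend mainly to the right, and stress transcription factors go both ways. The list of the endoplasmic reticulum unfolded protein response has 1 called gene, and the lists below it, of core metabolism, mitochondrial stress, gene expression machinery and tissues, hold none.

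Detoxification genes moved both ways. Across 5 families of detoxifying enzymes, 13 of 136 genes rose (9.56%) and 26 fell (19.1%), and 47.8% stayed within 1.5-fold. UDP-glucuronosyltransferases, which attach sugar to toxins, held 11 of these falls, with 11 of 36 genes lower and 3 higher. Among them, *ugt-44* had an FPKM of 8.42 (20°C), 31.03 (10°C), 2.12 (day 1), 1.69 (day 3) and 0.831 (day 5), so that a high value at 10°C preceded the fall. For *ugt-63*, the level already fell between 20°C and 10°C (7.98 and 3.40) and was 0.175 at day 1. Of 35 cytochromes P450, which oxidize lipids and toxins, 8 fell and 4 rose. The largest fall was that of *cyp-34A8* (-2.18) and the largest rise that of *cyp-13A5* (1.66). Glutathione S-transferases, which couple glutathione to oxidized molecules, had 6 rises and 4 falls among 31. The largest was *gst-24*, whose FPKM was 1.11 (20°C), 1.47 (10°C), 47.4 (day 1), 94.5 (day 3) and 49.4 (day 5) (log2 ratio 4.92 at day 1, limits 4.71 to 5.33). The gene *gst-4*, a common reporter of oxidative stress in the worm, had 25.5 at 4°C day 1 and 6.21 at 10°C.

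Cuticle genes fell more often than they rose. Of 86 collagen genes past the filter, 20 fell (23.3%) and 1, *col-116*, rose, with a median log2 ratio of -0.52. The gene *col-116* passed the filter only through day 1, with an FPKM of 1.14. The most abundant collagen RNA of the hypodermal marker list, *col-19*, had an FPKM of 316 at 4°C day 1 and 259 at 10°C, while *col-10* of that list had 19.4 and 42.99. The largest falls were *col-158* (-2.61, from 28 and 220 reads) and *col-103*, with an FPKM of 7.78 at 4°C day 1 and 36.6 at 10°C. The neighbours *col-167* to *col-170* on chromosome X had ratios between -1.70 and -1.59, and similar collagen genes can share reads. Of the 5 cuticlins past the filter 2 fell, *cut-2* (-1.13) and *cut-3* (-1.11). The hedgehog-related family of secreted proteins, many made in the hypodermis, had 5 of 16 genes lower and none above 0, with a median of -0.71. These had low levels: *grl-16*, the largest fall, had an FPKM of 0.979 at 4°C day 1 and 2.80 at 10°C, and with a pseudocount of 1 none of the family was called.

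Transcripts of the early embryo formed the list with the largest share of falls. Of 18 listed genes that start in the first embryonic cell divisions 8 passed the filter, and of these 5 fell and none was above 0. The gene *sdz-30* (chromosome I, 13307051 to 13308685, 1 exon), one of a set first found as zygotic targets of the maternal factor SKN-1, had an FPKM of 13.98 (20°C), 6.57 (10°C), 0.611 (day 1), 0.327 (day 3) and 0.398 (day 5). For *sdz-28* the FPKM was 0.437 at 4°C day 1 and 2.54 at 10°C, for *sdz-24* it was 0.335 and 1.95, and for *pes-10*, an early somatic marker, 1.15 and 4.34. Both *vet-6* (3.11 and 7.01) and *vet-1* (3.16 and 6.19), named as very early transcripts, had more RNA at 4°C day 1 than these 3 *sdz* genes and *pes-10*, and *vet-1* was not called (-0.95). The summed FPKM of the 18 genes was 59.9 (20°C), 33.1 (10°C), 11.6 (day 1), 8.17 (day 3) and 11.4 (day 5), so it was already lower at 10°C than at 20°C. Germ line and oocyte genes, which include maternal transcripts, differed less. None of 32 was called, but only 5 were above 0, with a median of -0.22 (range -0.73 to 0.24), and their summed FPKM was 3828 at 4°C day 1 and 4468 at 10°C.

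A survey of all name prefixes with at least 5 genes past the filter covered 283 prefixes, of which 168 held no called gene. Prefixes named from this survey were chosen after their values were seen. Of 20 *sdz* genes past the filter 12 fell (60%) and 2 rose (10%). Of 32 *fbxb* genes (F-box proteins of class B) 12 fell (37.5%) and 0 rose, and of 9 *math* genes 5 fell (55.6%) and 0 rose. Over all genes 5.42% fell and 5.49% rose. The *sdz* falls include *sdz-24*, *sdz-28* and *sdz-30* of the early embryo list. Among the falls, 7 of the *sdz*, 7 of the *fbxb* and all 5 of the *math* genes lie on chromosome II. Their levels were low throughout: *fbxb-103*, the largest *fbxb* fall, had an FPKM of 3.02 (20°C), 1.43 (10°C), 0.275 (day 1), 0.241 (day 3) and 0.285 (day 5). With a pseudocount of 1, the falls among all F-box genes numbered 1. The Skp1-related genes *skr-8*, *skr-9*, *skr-10* and *skr-12*, whose products link F-box proteins to ubiquitin ligases, fell as well. The FPKM of *skr-8* was 23.5 (20°C), 11.7 (10°C), 3.82 (day 1), 2.29 (day 3) and 3.41 (day 5), and the other 3 had log2 ratios at day 1 between -1.91 and -1.22. The bHLH genes *hlh-25* (-1.93) and *hlh-27* (-1.83) also fell at low levels, from 12 and 14 reads at 4°C day 1 and 70 and 71 reads at 10°C. Both passed the filter only through 20°C, as did *fbxb-68*, *fbxb-105* and *math-18* among the falls above.

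F-box proteins of class A went the other way in part. Of all 120 F-box genes past the filter 15 rose (12.5%) and 21 fell (17.5%), against 5.49% and 5.42% of all genes. In the lowest of the 10 bins by RNA level, 10.7% rose and 20.8% fell, and F-box genes were not matched for RNA level. Of the 15 rises, 14 were *fbxa* genes. Of 59 *fbxa* genes 14 rose and 6 fell, and *fbxa-72* had the steepest fall of all F-box genes (105 reads at 4°C day 1 and 493 at 10°C, 4.52-fold). The largest rise, *fbxa-163*, had 2245 reads at 4°C day 1 and 7 at 10°C. Next came *fbxa-30* (3.00), *fbxa-66* (2.90) and *fbxa-98* (2.82), the last with an FPKM 7.05-fold higher at 4°C day 1. Of these, *fbxa-66* passed the filter only through day 1, with an FPKM of 1.09, so it was counted only because it was high there. Of the 19 Skp1-related genes, *skr-3* and *skr-5* rose. The gene *skr-3* had 2591 reads at 4°C day 1 and 658 at 10°C (3.85-fold). Its FPKM was 11.1 at 10°C and 14.3 at day 3, so the high value was that of day 1.

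**Figure D4:**
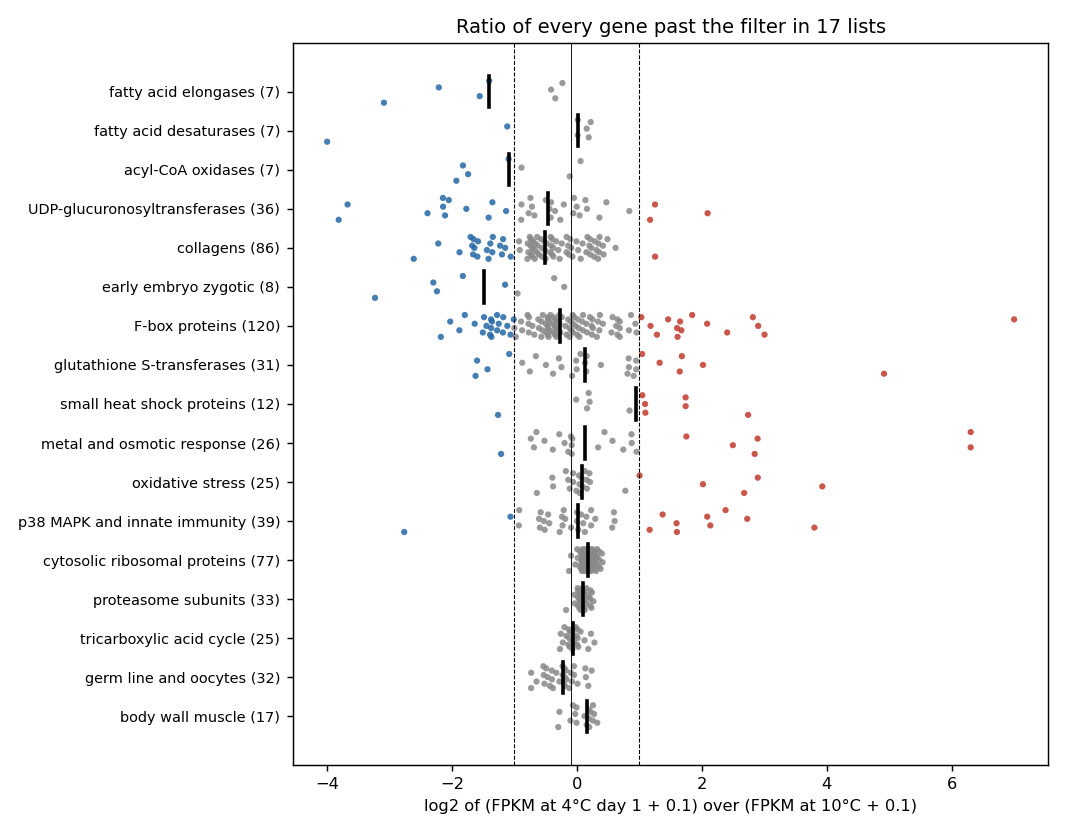
Log2 ratio of FPKM + 0.1 at 4°C day 1 over 10°C for every gene past the filter in 17 families and lists (number of genes in parentheses), 1 point per gene, red for at least 2-fold higher and blue for at least 2-fold lower; black bars are list medians, dashed lines mark 2-fold and the thin line the median of all genes, -0.09. Elongases and early embryo genes lie left of that line, and the metal, oxidative and immunity lists have medians near it and long tails to the right. The small heat shock list has a median of 0.95, with near copies counted separately, which weights it towards the *hsp-16* pairs.

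Metal-responsive genes showed the largest rises of the stress lists. Of 26 genes of the metal and osmotic response, 6 rose (23.1%) and 1 fell, with a median of 0.13. The copies *numr-1* and *numr-2*, nuclear proteins induced by metals, are neighbours on chromosome III (7362619 to 7363464 and 7364385 to 7365230) and had the same number of reads in every condition, so they count as 1 measurement, which makes the rises 5 of 25 (20.0%). Their FPKM was 0.178 (20°C), 0.367 (10°C), 36.8 (day 1), 58.4 (day 3) and 46.4 (day 5), from 2649 reads at 4°C day 1 and 26 at 10°C. For the metallothionein gene *mtl-1* the FPKM was 3.91 (20°C), 2.40 (10°C), 18.5 (day 1), 90.6 (day 3) and 45.3 (day 5), so most of its increase came after the first day. The trehalase gene *tre-5* (2.85), the cadmium-responsive gene *cdr-4* (2.50) and the ferritin gene *ftn-1* (1.75) rose too. The zinc-activated receptor gene *hizr-1* fell (-1.21) and passed the filter only through 20°C.

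Oxidative stress genes rose in part, and none fell. Of 25 genes, 5 rose, with a median of 0.08 over the list. The nitrilase gene *nit-1* had an FPKM of 28.9 at 4°C day 1 and 1.81 at 10°C. The Cu/Zn superoxide dismutase gene *sod-5* had 69 reads at 4°C day 1 and 4 at 10°C, and *sod-3*, for a mitochondrial enzyme, lay at the threshold (1.00, limits 0.64 to 1.55). The receptor for selective autophagy *sqst-1*, the worm's p62, was the most abundant of these. Its FPKM was 8.14 (20°C), 12.7 (10°C), 81.6 (day 1), 108 (day 3) and 71.8 (day 5). In the autophagy and lysosome list it was joined by *epg-9* (2.42-fold), for an autophagy initiation factor, and *ncr-1* (2.30-fold), for a cholesterol transporter of late endosomes. The other 25 of 28 genes had no call and none lay below -0.23.

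Small heat shock proteins bind unfolding proteins, and 6 of 12 genes rose and 1 fell. With near copies whose reads differ by at most 1 in every condition counted once, 4 of 10 rose (40.0%). Most were near the bottom of the scale at day 1. The FPKM of *hsp-12.6* was 0.474 (20°C), 0.404 (10°C), 3.27 (day 1), 17.6 (day 3) and 29.6 (day 5). The *hsp-16* genes lie as pairs of near copies: *hsp-16.1* and *hsp-16.11* had 113 reads each at 4°C day 1 and 50 at 10°C, and *hsp-16.48* and *hsp-16.49* had 80 and 21. The FPKM of *hsp-16.48* was 1.72 (20°C), 0.581 (10°C), 2.18 (day 1), 39.3 (day 3) and 18.7 (day 5), so its day 1 value was close to that at 20°C. The count of *hsp-16.2*, 14 reads at 4°C day 1 and 5 at 10°C, does not separate the conditions (limits -0.09 to 3.29). With a pseudocount of 1, the rises in this list numbered 3. The abundant members *sip-1*, *hsp-25* and *hsp-43* had log2 ratios of 0.16, 0.21 and 0.19. The large chaperones were near their 10°C level, with 0.25 for *hsp-90* and 0.23 for *hsp-1*, and no DnaJ co-chaperone of 29 was called. In the list of the unfolded protein response of the endoplasmic reticulum, 1 of 28 genes rose, the serpin gene *srp-7*, and the chaperone gene *hsp-4* had 281 at 4°C day 1 and 180.3 at 10°C (0.64). None of 21 mitochondrial stress genes was called.

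Genes of immunity rose and fell within the same families. Of 39 genes of the p38 pathway and innate immunity, 9 rose (23.1%) and 2 fell. This list shares called genes with others, so they are counted more than once. The genes *cnc-4*, *clec-4* and *lys-1* are also in the families below, and *pqm-1* is among the stress transcription factors. The flavin monooxygenase gene *fmo-2* had an FPKM of 0.114 (20°C), 0.439 (10°C), 7.42 (day 1), 20.0 (day 3) and 6.78 (day 5). The infection response gene *irg-1* had 3.21 at 4°C day 1 and 0.653 at 10°C, and the caenacin peptide gene *cnc-4* had 11.9 and 2.20. Both were highest at day 1, and at day 3 *irg-1* had 1.03 and *cnc-4* 3.62. Of 31 antimicrobial peptide genes 6 rose and 4 fell. The rises included *fipr-24* (139 reads at 4°C day 1, 0 at 10°C, so no fold is given), *cnc-11* (171 and 3 reads) and *fipr-26* (95 and 5 reads). The largest fall was *cnc-8*, with 105 reads at 4°C day 1 and 422 at 10°C (4.01-fold). C-type lectins, which bind sugars and are often made in the gut, had 10 falls and 2 rises among 56. The largest falls were *clec-4* (-2.76) and *clec-1*, with 4.75 at 4°C day 1 and 25.7 at 10°C. Of the lysozymes, *lys-1* fell (38.4 and 80.3) and *lys-3* rose (1.18 and 0.202).

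**Figure D5:**
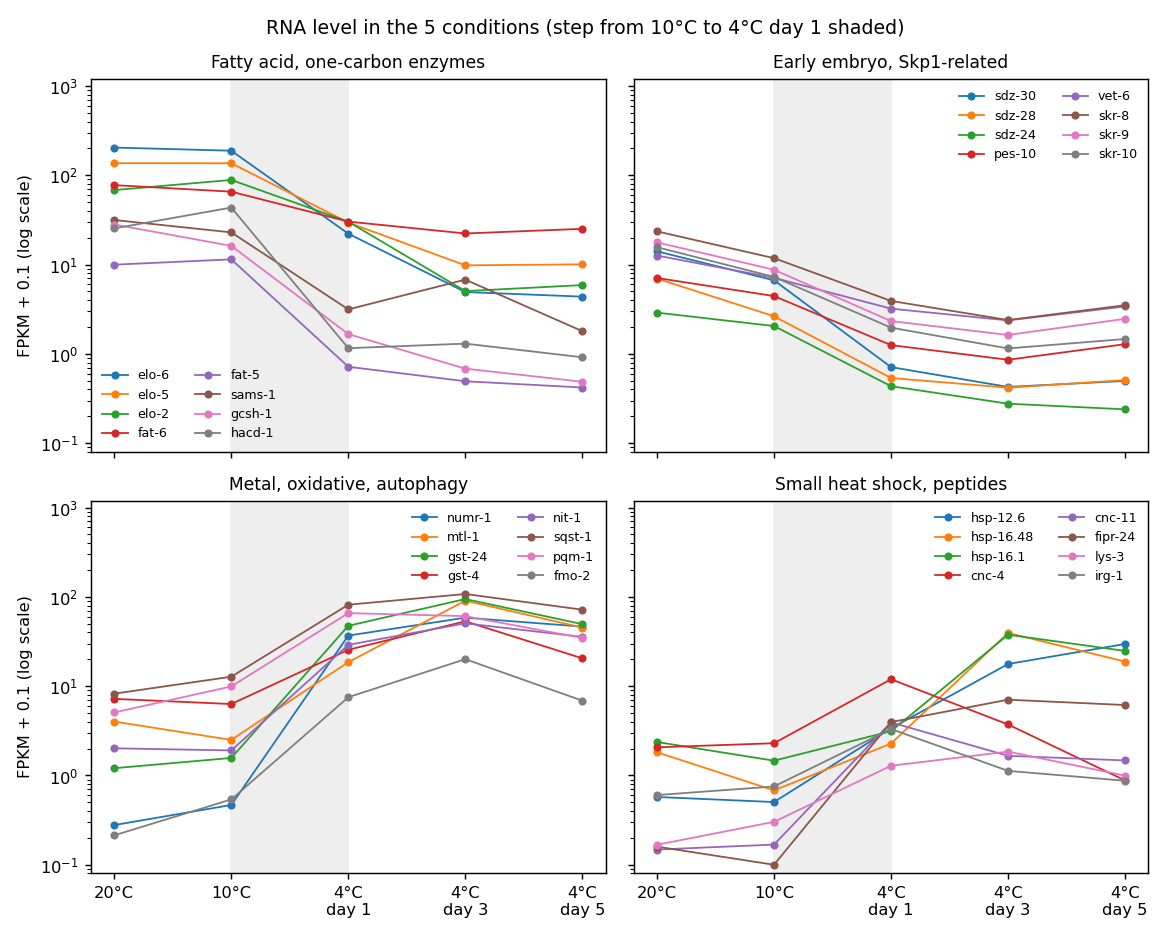
FPKM + 0.1 (vertical, log scale) of named genes in the 5 conditions, ordered 20°C, 10°C and days 1, 3 and 5 at 4°C, with the step from 10°C to day 1 shaded; 1 line per gene, 1 value per condition and no replicate error. The lipid enzyme genes fall within the shaded step, the early embryo genes decline from 20°C on, the metal and oxidative genes rise within it, and the small heat shock genes rise further by day 3.

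Regulators of transcription changed in both directions. Of 35 stress transcription factors, 4 rose (11.4%) and 3 fell (8.57%), against 5.49% and 5.42% of all genes. The zinc finger factor *pqm-1* was the most abundant rise, with an FPKM of 4.98 (20°C), 9.84 (10°C), 65.7 (day 1), 60.8 (day 3) and 34.6 (day 5) (log2 ratio 2.73 at day 1, limits 2.64 to 2.84). The bZIP gene *cebp-1* had 14.1 at 4°C day 1 and 4.49 at 10°C, and *fos-1* had 7.79 and 3.599. Of the falls, *atf-4*, the factor of the integrated stress response, had 2.81 at 4°C day 1 and 10.3 at 10°C, with 13.7% of its exonic bases shared with a second gene. The others were *zip-3* (-1.09) and the sterol-related nuclear receptor gene *nhr-8* (-1.28). Of 99 nuclear hormone receptor genes 13 fell (13.1%, against 5.42% of all genes) and 6 rose (6.06%, against 5.49%). They were led by *nhr-143* (-2.31) and *nhr-247* (267 reads at 4°C day 1, 2 at 10°C). The second passed the filter only through day 1, with an FPKM of 1.64. In insulin signalling, 1 of 23 genes was called (4.35%, against 10.9% of all genes), the kinase gene *akt-2*, with 16.1 at 4°C day 1 and 3.59 at 10°C.

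Ranked by the difference in FPKM itself, the rises were of mixed kinds. The 15 largest included a short transcript of unknown function, Y119D3B.21 (201 bases on chromosome III), with 1086 at 4°C day 1 and 502 at 10°C, and Y94H6A.10, with 384 and 28.2. The serpin gene *srp-7*, for a protease inhibitor, had 308 at 4°C day 1 and 96.1 at 10°C, and stayed between 262 and 265 at days 3 and 5. A pair of galectins, which bind galactose-containing sugars, were among them: *lec-6* with 222 at 4°C day 1 and 98.3 at 10°C, and *lec-8* with 172 and 77.0. The fatty acid amide hydrolase gene *faah-2* had 6.66 (20°C), 17.2 (10°C), 183 (day 1), 60.4 (day 3) and 16.5 (day 5), with the highest value at day 1. The legumain protease gene *lgmn-1* had 128 at 4°C day 1 and 41.5 at 10°C. The others were *lips-11* and 7 genes with sequence names, among them F19B10.13 (199 and 1.84), F53A9.8 (126 and 12.99) and T19D12.4 (95.2 and 12.9).

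The 15 largest falls by FPKM were mostly enzymes. At the head stood *pud-1.1* and *pud-1.2*, near copies on chromosome V that shared nearly all reads (10514 and 10515 at 4°C day 1, 24038 and 24037 at 10°C) and count as 1 measurement. The FPKM of *pud-1.1* was 936 (20°C), 630 (10°C), 271 (day 1), 16.1 (day 3) and 9.98 (day 5), a decline through all 5 conditions. The list also held *elo-6*, *elo-5*, *elo-2*, *ech-7*, *hacd-1*, *hphd-1*, *lys-1* and the short-chain dehydrogenase gene *dhs-25* (32.7 and 73.0). The aspartic protease gene *asp-2* had 35.4 at 4°C day 1 and 126 at 10°C, and C17F4.7 had 93.4 and 316. The exons of T13F3.6 lie 100% within those of a second gene, so its value (22.1 and 88.8) cannot be assigned. The last 2, F48D6.4 and Y51F10.7, had log2 ratios of -1.68 and -1.97.

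Marker genes of the main tissues were present in both conditions and few were called. Of the tissue lists, muscle (17 genes past the filter), neurons (18), sperm (10), gonad sheath and spermatheca (9) and excretory canal (7) held no called gene. Summed FPKM at 4°C day 1 and 10°C was 1733 and 1504 for muscle, 165 and 147 for neurons and 146 and 127 for gonad sheath. It was 5881 and 5655 for 16 intestinal markers, of which the yolk genes *vit-6* (2294 and 1947) and *vit-5* (1853 and 1929) make up most. Of these 16 markers, 4 were above 0, with a median log2 ratio of -0.22. The intestinal peptide transporter gene *pept-1* was the 1 marker of that list to fall, with 14.2 (20°C), 14.3 (10°C), 3.51 (day 1), 2.01 (day 3) and 1.24 (day 5). In the hypodermal list, 1 of 12 genes was above 0, with a median of -0.34, and *col-10* fell (-1.15). Its part in the falls of collagen and hedgehog-related genes was not tested. The pharyngeal list had 1 fall, *phat-5* (-1.13), among 12 genes. The sum for sperm was 37.3 at 4°C day 1 and 37.1 at 10°C. Coelomocyte and ciliated neuron markers were near the bottom of the scale, with sums of 1.41 and 1.69 for the coelomocytes and 1 gene past the filter in each list.

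Called genes were spread unevenly over the genome. On chromosome V, 8.85% of 1899 genes rose and 7.85% fell, and on X 7.64% of 1453 rose and 7.36% fell. On chromosome I the shares were 2.12% and 2.79% of 1794 genes, and none of 12 mitochondrial genes was called. Next to each other along the chromosome, 3 or more genes past the filter with the same call formed 24 runs of rises, with 84 genes, and 12 runs of falls, with 40 genes. The longest were 6 genes on chromosome I, from C37A5.6 to *fipr-24*, and 5 genes on chromosome X, from *kreg-1* to F53A9.8, with log2 ratios between 1.91 and 3.69 in the second. Others were 4 *fbxa* genes on chromosome III, *fbxa-31*, *fbxa-29*, *fbxa-30* and *fbxa-37*, and a run of falls made of *hlh-25*, *hlh-27*, *acdh-2* and C17C3.15 on chromosome II. Many runs join genes of 1 family, which can share reads, and in the run of 4 falls with *tatn-1* and *atf-4* the gene T04C10.11 lies 100% within exons of another gene.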

How the data were processed

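Total RNA of whole N2 animals was sequenced by the authors (ScriptSeq v2 libraries). Per the submitters' processing notes and the paper's methods, reads were trimmed with fastp 0.23.4, mapped with STAR 2.7.11b to WBcel235 within the ORFik pipeline, and expression was estimated with DESeq2 1.42.1. The authors deposited FPKM values per transcript, 1 column per condition; how the 2 samples of a condition were pooled, the annotation release and the use of strand are not given in the sources used here. One further column, for 25°C, belongs to no sample and was not used. The treatment label of the day 5 samples reads 3 days, their titles 5.

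Each gene took its transcript with the highest mean FPKM over the 5 conditions, and log2 ratios used a pseudocount of 0.1. Reads were recovered with exon lengths of Ensembl release 115, and 100% of values were whole within 0.01; a read counts for each transcript it overlaps. Totals ran from 70741449 (day 5) to 85103831 (day 1), where 3 reads on 1 kb equal an FPKM of 0.0353. The comparison was not tested, since no replicate values are given. Lists and families were set by name; members and lists were chosen with earlier results of these data known. Named genes were the 15 largest FPKM differences a direction, up to 4 called members a list and direction with at least 30 reads, whole lists of up to 12 genes, and the 3 most abundant tissue markers. Genes outside this rule (*cdr-4*, *ftn-1*, *sod-3*, *acdh-1*, *hsp-90*, *hsp-1*, *hsp-4*, *lys-3* with its family, members of prefixes, the *hlh* and neighbour runs) were chosen after their values were seen. The steps were tested on simulated data. Alternatives were pseudocounts of 1 and 0.01, no filter or one at an FPKM of 5, centred ratios, scaling without the 100 most read transcripts, transcript sums and a minimum of 30 reads. Promoter motifs, planned, were not analysed here. Tables were made in Python 3.11.15 (pandas 2.3.3, numpy 2.4.6), limits with scipy 1.17.1 and figures with matplotlib 3.10.9.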

Additional observations from a re-analysis of the deposited data

How the results depend on the processing

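Counts were recomputed for 18 results (both totals, lists without a call and 14 list counts) under 8 alternatives, and 127 of 144 values stayed within 1.5 times. Of 226 called genes followed, every one with a value kept its direction in all 8. This was largely fixed in advance. Pseudocounts, filters and a read minimum cannot reverse a ratio, and centring and scaling moved ratios too little to reverse a called gene. Only the transcript sums could have shown a reversal. A pseudocount of 1 left 365 rises and 228 falls, with 0 hedgehog-related falls, 1 F-box fall, 8 F-box rises and 3 small heat shock rises; 75 of the 226 genes were then under 2-fold. A filter at an FPKM of 5 left 340 rises and 192 falls, with 7 UDP-glucuronosyltransferase, 13 collagen, 0 hedgehog-related and 1 F-box falls, 4 F-box rises and 3 oxidative stress rises; both settings act on low values by construction. Without a filter, 903 genes and 38 F-box genes fell and 715 genes rose. Centring on the median left 2 of 4 phosphatidylcholine and methionine cycle falls, with 639 rises and 501 falls in all. Rises made up 50.3% of calls, 61.6% with the pseudocount of 1 and 63.9% with the filter at 5.

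No paired analysis was possible because the values of both samples of a condition come as 1 column, and for the same reason neither sample could be left out. The planned promoter motif counts were not run. Few calls rested on very low counts: 29 of the rises and 11 of the falls had under 30 reads in the higher column. The spread between the 2 samples of a condition is not known and limits every value above.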

Other observations

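Some further groups are described here. Of 77 histone genes, near copies included, 67 were above 0, with a median log2 ratio of 0.40. Their summed FPKM was 125066 at 4°C day 1 and 92361 at 10°C. Of these 77, 1 linker histone gene rose, *hil-1*, with an FPKM of 6.68 at 4°C day 1 and 2.09 at 10°C. Another, *hil-7*, fell, with 37 reads at 4°C day 1 and 143 at 10°C. Of 39 ABC transporter genes 5 rose and 1 fell. The transporter gene *haf-7* had 13.1 at 4°C day 1 and 2.87 at 10°C, *pgp-10* had 3.42 and 0.792, and *pmp-5* fell to 2.31 at 4°C day 1, against 11.9 at 10°C. Of 24 potassium channel genes 6 fell and 3 rose, all at low levels, with *unk-1* the most abundant (7.48 and 3.22). Of 77 neuropeptide genes 68 were above 0, with a median of 0.29. Of these 77 genes 3 rose (3.90%, against 5.49% of all genes) and none fell. The largest was *flp-10*, with 4.97 at 4°C day 1 and 1.21 at 10°C. The tetraspanin genes *tsp-1* and *tsp-2*, for membrane-spanning proteins, rose with log2 ratios of 2.52 and 2.62, and *tsp-9* and *tsp-10* fell (-1.22 and -1.47).

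The courses of 4 more genes were chosen after their values were seen. The gene *bre-1*, for an enzyme that makes a sugar nucleotide, had an FPKM of 6.49 (20°C), 16.99 (10°C), 96.4 (day 1), 12.8 (day 3) and 8.01 (day 5). The phospholipase gene *ipla-2* had 5.96 (20°C), 14.9 (10°C), 84.5 (day 1), 15.1 (day 3) and 11.8 (day 5). The acid phosphatase gene *pho-9* had 1.18 (20°C), 4.50 (10°C), 25.8 (day 1), 13.1 (day 3) and 3.63 (day 5). The first 3 were highest at day 1 and already higher at 10°C than at 20°C. The galectin gene *lec-2* had 26.6 (20°C), 27.3 (10°C), 95.04 (day 1), 232 (day 3) and 204 (day 5).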
